A study of Mus musculus with 10 samples.

Results

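MiRNAs that mark tissues other than muscle were measured in RNA of C2C12 cells, a myoblast line derived from skeletal muscle of C3H mice. Members were chosen by name, as mouse miRNAs known for embryonic stem cells (the miR-290 to miR-295 cluster, miR-302 and miR-367), epithelium (miR-200a to c, miR-141, miR-429, miR-203 and miR-205), neurons (miR-9, miR-124, miR-128, miR-137, miR-7a and miR-7b), blood cells (miR-142, miR-150, miR-155, miR-223 and miR-451), liver (miR-122), endothelium (miR-126) and pancreas (miR-216, miR-217 and miR-375). The choice was made with earlier results of these data known. Star strands, the less abundant arm of a hairpin in the naming of the time, were not members. The rule took 38 of 375 miRNA assays on TaqMan Array A, 4 of 209 on TaqMan Array B and 42 of 617 mouse miRNA probes on the microarray, which together were 42 miRNAs.

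All values came from aliquots of 1 total RNA sample of proliferating, untreated myoblasts. Array A was run on 4 cards with 500 ng of RNA each, from reverse transcription reaction 2 (RT2) and reaction 1 (RT1), each on day 2 and day 1. Array B was run on 2 cards with pre-amplification of the reverse transcription product and on 2 cards without it, from less RNA. The microarray was run as array 2 and array 1, with 8 µg each. Since the cards and arrays shared 1 RNA, each SD and p-value here measures technical error and says nothing of the spread between cultures.

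The qPCR cards give the threshold cycle (Ct), which is lower the more of the target is present, and a Ct of 40 stands for a well that stayed undetermined. A mean Ct of 35 or less was called detectable. On the microarray, the limit was a background-subtracted signal of 32 or more on both arrays. MammU6, a small nuclear RNA that served as the reference for ΔCt, had a Ct of 19.58 on RT2 day 2, 19.61 on RT2 day 1, 19.77 on RT1 day 2 and 19.57 on RT1 day 1, and the plant miRNA ath-miR159a was undetermined on all 4 cards. Of the skeletal muscle list, 4 of 8 assays were detectable on Array A, beside 48.5% of all miRNA assays. On the microarray it was 4 of 8 probes, beside 22.2% of all mouse miRNA probes. miR-133a, miR-133b and miR-486 were detectable on both platforms, with the rat-named miR-1 on Array A and miR-206 on the microarray. The mouse-named miR-1, miR-208 (miR-208a on the microarray), miR-208b and miR-499 were detectable on neither. Muscle miR-206 had a Ct of 25.95 ± 0.317 on Array B without pre-amplification (SD, n = 2) and a microarray signal of 4534, the mean of both arrays.

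A miRNA guides a silencing complex to messenger RNAs that pair with its seed, bases 2 to 8 from its 5′ end, so miRNAs with 1 seed can share targets. Many miRNAs are made in few tissues. The miR-290 and miR-302 clusters are known from pluripotent cells, the miR-200 family keeps epithelial cells from a mesenchymal state by repressing Zeb1 and Zeb2, miR-124 and miR-9 belong to neurons and their progenitors, and miR-142 and miR-223 belong to blood cells.

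In the set of RefSeq mature sequences used here (GRCm38.p6), 35 of the 42 miRNAs were matched. miR-122 was left out of the matching, and a miRNA without a match was not shown to be absent from RefSeq. The first set holds those detectable on Array A that were found there, together with miR-7b, which lay just outside the limit. Capitals mark the seed. miR-150 and miR-375 were detectable too.
miR-9: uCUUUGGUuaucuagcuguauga
miR-155: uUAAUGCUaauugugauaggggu
miR-142-3p: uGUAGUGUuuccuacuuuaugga
miR-126-3p: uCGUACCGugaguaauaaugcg
miR-7a: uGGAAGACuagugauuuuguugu
miR-128: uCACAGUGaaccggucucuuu
miR-223: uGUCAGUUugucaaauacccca
miR-7b: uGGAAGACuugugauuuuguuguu

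The 7 detectable miRNAs of this set carried 7 different seeds, and no other miRNA of the 334 measured on both platforms shared one of them except miR-7b. Counted from the 5′ end, miR-7b differed from miR-7a over 23 bases by the substitution A10U, outside the seed, and the RefSeq entry of miR-7b goes on past the 3′ end of miR-7a. The genes of several lie within those of proteins in GRCm38.p6. The miR-126-3p sequence lies at chr2:26591402-26591423 (plus strand) within the span of Egfl7, an endothelial secreted factor. The miR-128 sequence occurs at chr1:128202404-128202424 (plus) within R3hdm1 and at chr9:112118644-112118664 (minus) within Arpp21. Of the 2 copies of miR-7a, the one at chr13:58392841-58392863 (minus) lies within the span of Hnrnpk, an RNA-binding protein made in most cells, and the one at chr7:78888295-78888317 (plus) lies in no protein-coding span. miR-9 has 3 copies, at chr3:88215613-88215635, chr7:79505279-79505301 and chr13:83738821-83738843, all on the plus strand. miR-155 lies at chr16:84714143-84714165, miR-142-3p at chr11:87756903-87756925 and miR-223 at chrX:96242884-96242905, each on the plus strand.

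A second set shows the seeds of the stem cell and epithelial families, of which no assay was detectable.
miR-294: aAAGUGCUucccuuuugugugu
miR-295: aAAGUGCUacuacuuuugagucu
miR-302b: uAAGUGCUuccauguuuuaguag
miR-302d: uAAGUGCUuccauguuugagugu
miR-200c: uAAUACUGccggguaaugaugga
miR-429: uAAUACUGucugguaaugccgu
miR-141: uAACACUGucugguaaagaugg
miR-200a: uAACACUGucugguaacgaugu

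The seed AAGUGCU was shared by 5 of the matched stem cell miRNAs, which lie in 2 clusters. The matched miR-290 to miR-295 sequences lie at chr7:3218639-3220837, within the span of the lncRNA D7Ertd143e for all genes but Mir290a, and the matched miR-302 and miR-367 sequences at chr3:127545275-127545800, within the span of Larp7. The miR-200 family has a cluster at chr4:156053916-156055706 (miR-429, miR-200a and miR-200b) and another at chr6:124717917-124718346 (miR-141 and miR-200c), and its 2 seeds, AAUACUG and AACACUG, are spread over both. From miR-200a to miR-141 the substitutions were C17A and U22G. The seed AUUGCAC of miR-367 was shared by 4 miRNAs that were no members. Their mean Ct was 26.93 for miR-92a, 30.55 for miR-25, 37.08 for miR-32 and 38.99 for miR-363. miR-367 itself was undetermined on every card.

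On Array A, 9 of the 38 lineage assays were detectable, 23.7% (95% Wilson interval 12.99 to 39.2, counting error only), against 48.5% of all 375 miRNA assays. The detectable members were miR-9, miR-7a and miR-128a of neurons, miR-155, miR-142-3p, miR-223 and miR-150 of blood cells, miR-126-3p of endothelium and miR-375 of pancreas. By the mean over the 4 cards, with undetermined wells at 40, no assay was detectable of the 12 for embryonic stem cells, the 7 for epithelium or the 1 for liver. With undetermined wells left out of the mean, the epithelial miR-200c came to 34.44 and would count as detectable. In neurons the count was 3 of 6, in blood cells 4 of 6, in endothelium 1 of 2 and in pancreas 1 of 4. The median of the mean Ct was 38.99 over the lineage assays and 35.29 over all miRNA assays. Since the members were picked by tissue and the assays differ in efficiency, these shares are descriptions with no test. The 38 hold both arms of some hairpins and clustered miRNAs, and they are part of the 375. The Wilson interval is therefore no test of the difference between the shares. In RNA from a whole culture, a low level in every cell and a higher level in few cells cannot be told apart.

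**Figure D1:**
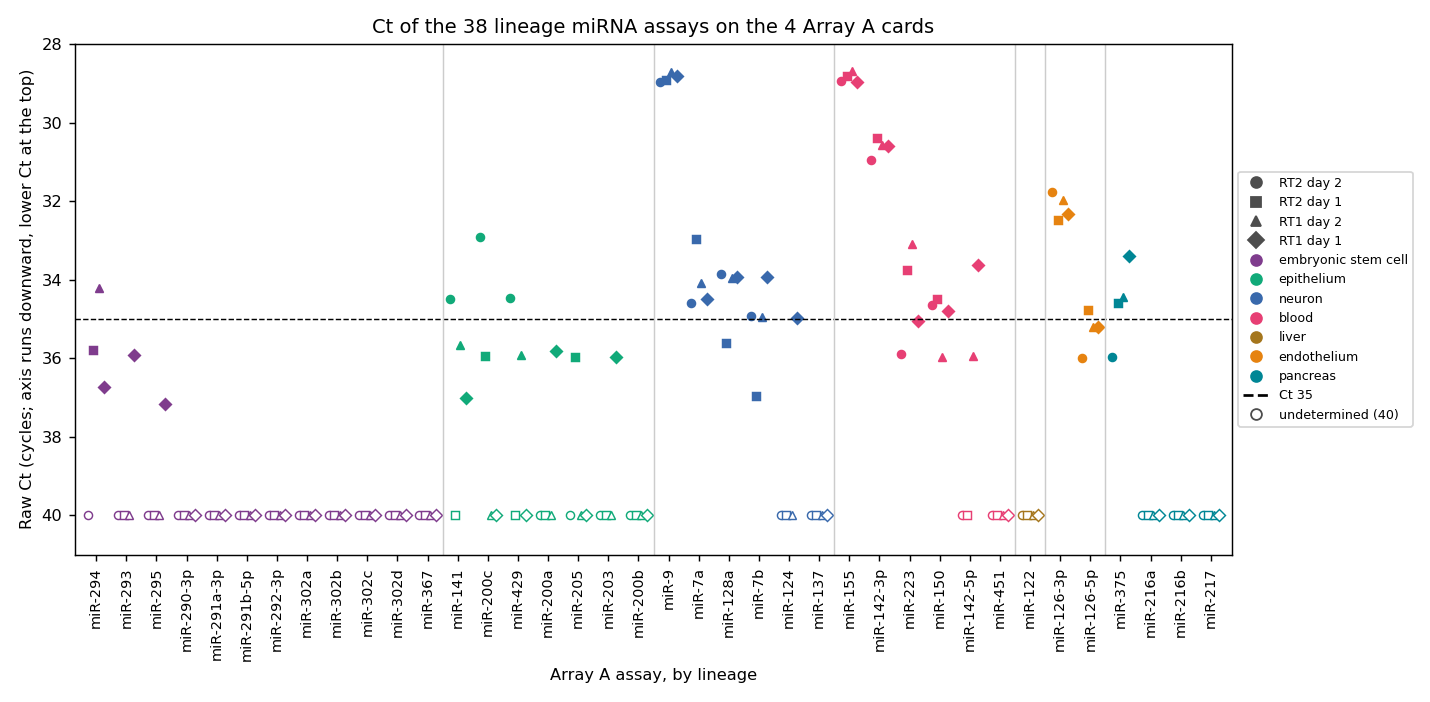
Raw Ct of the 38 lineage miRNA assays on the 4 Array A cards, grouped by lineage, with 1 point per card and open points for undetermined wells at 40. The dashed line is the limit of 35, and miR-9, miR-155, miR-142-3p and miR-126-3p are the only assays with all 4 cards below a Ct of 33.

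The lowest Ct among the members belonged to a neuronal and a blood cell miRNA. miR-9, which acts in neural progenitors, had a Ct of 28.98 on RT2 day 2, 28.92 on RT2 day 1, 28.72 on RT1 day 2 and 28.81 on RT1 day 1, with a mean of 28.85 ± 0.118 (SD, n = 4). miR-155, a regulator of activated lymphocytes and macrophages, had 28.96, 28.82, 28.69 and 28.97 on the same cards in that order, with a mean of 28.86 ± 0.131. Their means differed by 0.00375 cycles, far less than either SD, so the cards did not order them. For scale, the muscle miR-133b had a mean Ct of 28.85 ± 0.110 on the same cards. Many Ct values on these cards lay just below a whole cycle. Over all miRNA assays, 300 of 883 determined wells (34.0%) had a fraction of 0.9 or more. Whether this bears on the near match of these means, or on their small SDs, was not tested. The match is therefore no measure of equal levels.

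Next came miR-142-3p, made throughout the blood lineages, with a Ct of 30.95 on RT2 day 2, 30.40 on RT2 day 1, 30.58 on RT1 day 2 and 30.59 on RT1 day 1 (mean 30.63 ± 0.230). The endothelial miR-126-3p, which supports signalling by vascular growth factors, had 31.76, 32.48, 31.97 and 32.34 on those cards (mean 32.14 ± 0.331). miR-142-3p lay 1.77 cycles above miR-155, miR-126-3p lay 1.51 cycles above miR-142-3p, and the ranges over the cards overlapped in neither step. A gap of 1.90 cycles separated miR-126-3p from miR-7a, and among the members with a Ct on all 4 cards, each step from miR-7a up to miR-126-5p was smaller than the SD of both neighbours, with ranges that overlapped.

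Among these late members, miR-7a, a brain and endocrine miRNA, had a Ct of 34.60 on RT2 day 2, 32.96 on RT2 day 1, 34.08 on RT1 day 2 and 34.50 on RT1 day 1, and was the only one at 35 or less on all 4 cards. The brain miRNA miR-128a had 33.86, 35.62, 33.96 and 33.93 on the cards in the same order, so that RT2 day 1 alone was above 35. miR-223, a miRNA of granulocytes, had 35.895, 33.76, 33.10 and 35.04, with both reactions split across the limit. The islet miRNA miR-375 had 35.97, 34.59, 34.45 and 33.39, and miR-150 of mature lymphocytes had 34.65, 34.50, 35.97 and 34.79. Their means were 34.03 ± 0.753 (miR-7a), 34.34 ± 0.854 (miR-128a), 34.45 ± 1.26 (miR-223), 34.60 ± 1.06 (miR-375) and 34.98 ± 0.671 (miR-150). All 5 lay within 1 cycle of the limit, as did miR-7b (35.19 ± 1.27) and miR-126-5p (35.29 ± 0.508) on its other side, and for each of these 7 but miR-7a the distance to the limit was smaller than its SD over the cards.

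Both arms of the miR-126 and miR-142 hairpins had assays on Array A. The 3p arm had the lower mean Ct in each: 32.14 for miR-126-3p beside 35.29 for miR-126-5p, and 30.63 for miR-142-3p beside 37.39 for miR-142-5p. The Ct of miR-126-5p was 35.99 on RT2 day 2, 34.76 on RT2 day 1, 35.21 on RT1 day 2 and 35.22 on RT1 day 1, so its range did not meet that of the 3p arm. miR-142-5p was undetermined on both RT2 cards and had a Ct of 35.95 on RT1 day 2 and 33.62 on RT1 day 1. Assays of the 2 arms can differ in efficiency, and no test was made between them.

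A further 6 members with a mean above 35 had at least 1 card at 35 or less, besides miR-7b and miR-126-5p. The epithelial miR-200c gave 32.93 on RT2 day 2 and 35.96 on RT2 day 1, and was undetermined on both RT1 cards. miR-141, from the same cluster, gave 34.49 on RT2 day 2, 35.66 on RT1 day 2 and 37.01 on RT1 day 1, and miR-429 gave 34.47 on RT2 day 2 and 35.92 on RT1 day 2. On these cards, then, the 3 lowest epithelial values all fell on RT2 day 2. The stem cell miR-294 gave 35.79 on RT2 day 1, 34.20 on RT1 day 2 and 36.73 on RT1 day 1, and the neuronal miR-124 gave 34.97 on RT1 day 1 alone. The sixth was miR-142-5p.

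Wells that were determined on some cards only were frequent among the lineage assays. Of the 38, 16 (42.1%) were undetermined on all 4 cards, 11 (28.9%) on 1 to 3 cards and 11 (28.9%) on none, against 29.9%, 20% and 50.1% of all 375 assays. A single determined well was found for 6 members, 5 of them on RT1 day 1 (miR-293, miR-295, miR-200a, miR-203 and miR-124) and 1 on RT2 day 1 (miR-205). Over all 375 assays the single wells numbered 6 on RT2 day 2, 9 on RT2 day 1, 7 on RT1 day 2 and 15 on RT1 day 1. The highest determined Ct of a member was 37.16, for miR-295. The members undetermined on every card were 9 of the 12 stem cell assays, 3 of the 4 pancreatic ones and miR-200b, miR-137, miR-451 and the liver miR-122.

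The spread of the detectable members over the cards was set beside that of all detectable miRNA assays in the same range of Ct. Between 25 and 30 cycles, the SD was 0.118 for miR-9 and 0.131 for miR-155, with a median of 0.121 over 79 assays. Between 30 and 35 cycles, the median SD was 0.753 over the 7 members and 0.508 over 93 assays, and 5 of the 7 lay above that median of all. The exceptions were miR-142-3p and miR-126-3p, which had the lowest Ct of the 7. The other 5 had mean Ct values of 34.03 to 34.98, at the late end of the range, so the 93 assays were not matched to them in Ct. Without RT2 day 1 the medians were 0.292 over the same 7 members and 0.470 over the 93 assays, and 3 of the 7 lay above the median of all. With each of the other cards left out, the members' median was 0.777 to 0.921, above that of the 93 assays.

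The 2 reactions and the 2 days were compared by limma on ΔCt over the 182 detectable assays, 9 of them members. Between RT2 and RT1, 4 of 182 (2.20%) were called at an adjusted p under 0.05, and 0 of the 9 members, with 0 at an unadjusted p under 0.05. The largest member difference, RT2 minus RT1, was 1.44 ± 0.646 cycles (SE) for miR-375 (limma adjusted p = 0.841). The differences of miR-9 (0.27 ± 0.177) and miR-155 (0.14 ± 0.234) were among the smaller ones. Between day 2 and day 1, 0 of 182 assays (0%) were called, with 8 at an unadjusted p under 0.05. Of those 8, 1 was a member, miR-126-3p, whose ΔCt was lower on day 2 than on day 1, with a difference of -0.63 ± 0.174 cycles (SE, limma adjusted p = 0.802). The largest member difference by day was 1.14 ± 0.788 for miR-375 (adjusted p = 0.994). The SE reached 1.23 cycles in the late members (miR-223, day 2 minus day 1), so a p above the threshold there does not show that the cards were alike.

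Array B carried 4 members, all stem cell miRNAs of the chromosome 7 cluster (miR-290-5p, miR-291a-5p, miR-291b-3p and miR-292-5p). All 16 wells were undetermined, with pre-amplification and without it. Over all 209 assays, 52.2% were detectable with pre-amplification and 28.7% without it. No member could therefore enter the comparison of the 2 protocols, which called 15 of 60 assays (25.0%) by limma.

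The star strands of the same hairpins were on Array B as 14 assays, 1 of them named for rat. Of these, 8 were undetermined on all 4 cards, among them those of miR-124, miR-150, miR-200b, miR-200c, miR-293 and miR-294. miR-7a*, whose probe sequence is that of the copy within Hnrnpk, and miR-9* are shown with their seeds since they were the ones found in both protocols.
miR-7a*: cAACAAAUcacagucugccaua
miR-9*: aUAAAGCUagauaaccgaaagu

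miR-7a* had a Ct of 23.69 and 22.70 on the pre-amplified cards, against 31.43 and 30.66 on the cards not pre-amplified. The rat-named assay rno-miR-7a* had 23.48 and 23.37 with pre-amplification, against 30.67 and 30.70 without it. miR-9* had 24.66 and 25.05 with pre-amplification, against 33.55 and 32.89 without it. Pre-amplified wells were thus lower by 7.26 to 8.37 cycles in these 3, and MammU6 moved in the same direction, to 13.80 and 14.01 with pre-amplification, against 21.71 and 21.67 without it. Relative to MammU6, the difference, pre-amplified minus not pre-amplified, was -0.06 ± 0.492 cycles for miR-7a* (SE, limma adjusted p = 0.917), 0.53 ± 0.206 for rno-miR-7a* (adjusted p = 0.147) and -0.58 ± 0.275 for miR-9* (adjusted p = 0.205), so that none of the 3 was called.

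miR-141* was the star strand that crossed the limit with pre-amplification. It had a Ct of 30.91 and 30.93 on the pre-amplified cards, against 38.22 and 38.61 on the cards not pre-amplified. In ΔCt it was at 17.01 with pre-amplification and 16.72 without it, beside 17.16 for miR-141 on Array A. The value of 16.72 came from wells above the limit. That of miR-141 counts the undetermined RT2 day 1 well at 40 and had an SD of 2.39 over the cards. How near the strands were was not tested. miR-200a* (36.21) and miR-302c* (37.16) were determined on 1 pre-amplified card each and on no other.

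**Figure D2:**
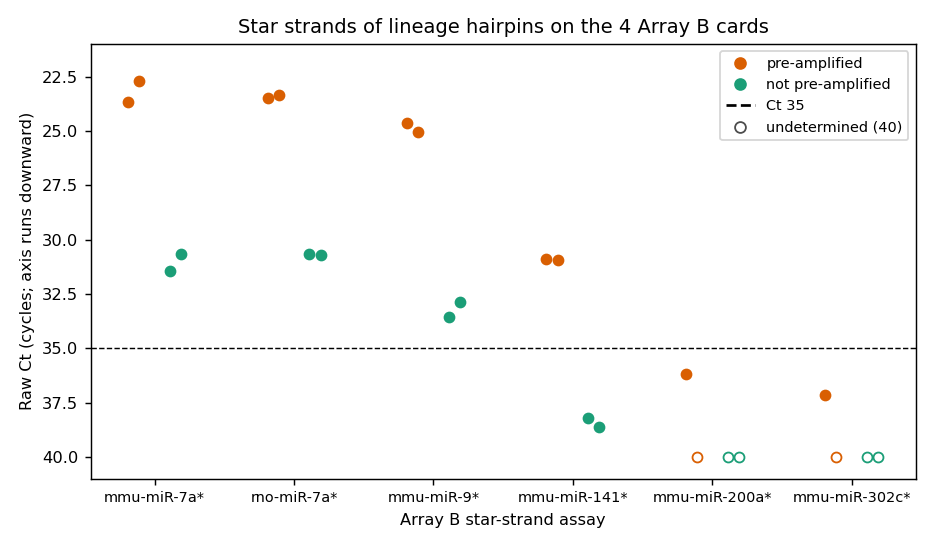
Raw Ct of 6 star-strand assays of lineage hairpins on the 2 pre-amplified cards (left of each pair) and the 2 cards not pre-amplified (right), with open points for undetermined wells at 40 and a dashed line at 35. miR-7a*, rno-miR-7a* and miR-9* were below the limit in both protocols and miR-141* in the pre-amplified one only.

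The 2 strands of miR-7 stood in the reverse order to those of miR-9. ΔCt without pre-amplification was 9.35 for miR-7a* and 8.99 for rno-miR-7a*, beside 14.40 for miR-7a on Array A. For miR-9* it was 11.52, beside 9.22 for miR-9 on Array A. The cards of the 2 arrays received different amounts of RNA and different primer pools, so these values are given side by side with no test.

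On the microarray, 3 of 42 lineage probes were detectable (7.14%, Wilson interval 2.46 to 19.0), against 22.2% of all 617 mouse miRNA probes. As on Array A, the interval is no test of the difference. They were miR-155, miR-128 and miR-7a. miR-155 had a mean signal of 361 over its 5 spots on array 2 (271 to 447) and 190 on array 1 (155.1 to 214), so the spots of the arrays did not overlap. Its ratio of array 2 over array 1 was 1.90, while the median ratio of the 137 detectable probes was 0.998. A ratio at least as high was found for 12 of the 137, miR-155 included. miR-128 had 76.7 on array 2 and 65.7 on array 1, with all 10 spots at 32 or more. miR-7a had 62.9 on array 2 and 40.2 on array 1, with 5 spots and 3 spots at 32 or more.

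The other 39 probes had medians close to those of all 617 probes, of which they are part. Most of the 617 were not detectable either. The median of the 39 was 20.4 on array 2 and 16.4 on array 1, beside 20.6 and 16.4 over all 617 probes. Closest to the limit was the stem cell miR-290-5p, with 37.6 on array 2 and 30.2 on array 1, although its Array B wells were all undetermined. The blood cell miR-142-3p (31.5 on array 2 and 16.0 on array 1) and miR-223 (31.3 and 23.0) were just under the limit on array 2 and farther below it on array 1. The liver miR-122 had 26.3 on array 2 and 28.8 on array 1. The SD of the scanner density over 579 empty spots was 15.1 on array 2 and 19.5 on array 1. With a limit of 3 SD, 45.2 on array 2 and 58.5 on array 1, miR-155 and miR-128 stayed detectable and miR-7a did not. The study's methods list a signal above 3 SD of the background among their criteria.

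**Figure D3:**
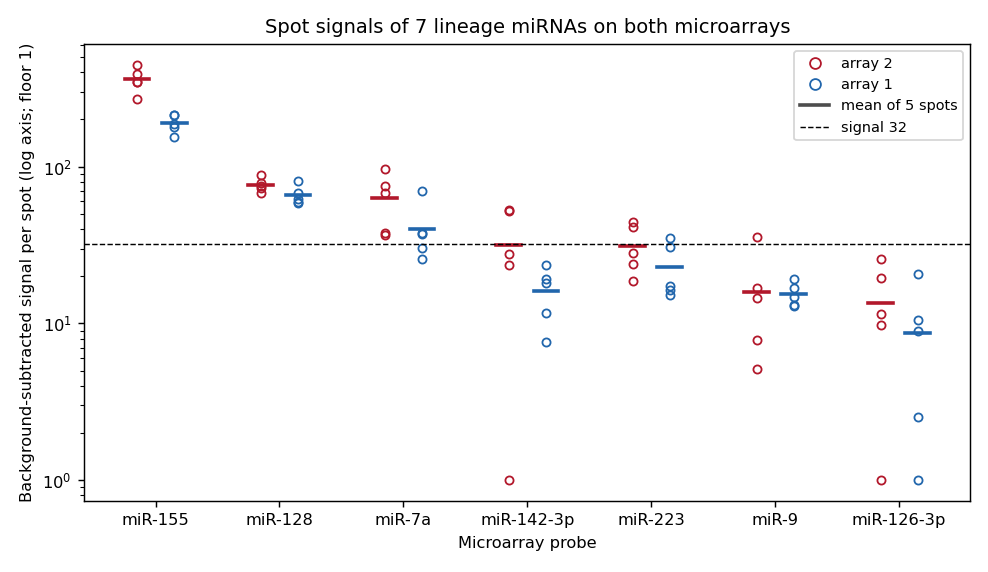
Background-subtracted signal of each spot (log axis) for 7 lineage miRNA probes on array 2 (left of each pair) and array 1 (right), with bars at the mean of 5 spots and a dashed line at the limit of 32. All spots of miR-155 and miR-128 lie above the limit, while miR-9 and miR-126-3p have means of 15.9 and 13.5 on array 2 and 15.4 and 8.70 on array 1.

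Of the 9 members detectable on Array A, 3 were also detectable on the microarray (33.3%), against 50% of the 174 mouse miRNAs detectable on Array A with a probe. Between 30 and 35 cycles, 2 of 7 members (28.6%) and 23 of 89 mouse miRNAs (25.8%) were also detectable on the microarray. Between 25 and 30 cycles it was 1 of 2 members and 54 of 75 mouse miRNAs (72.0%). Of the 29 members with a mean Ct above 35, 0 were detectable on the microarray, beside 3 of 160 mouse miRNAs (1.88%).

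miR-9 and miR-155, which the cards did not order, fell on different sides of the microarray limit. miR-9 was under it on both arrays, with a signal of 15.9 on array 2 and 15.4 on array 1, and miR-155 was above it on both. Another 24 mouse miRNAs had a mean Ct within 0.5 cycles of miR-9, of which 16 were detectable on the microarray. Both sequences have 8 G or C bases in 23, a share of 34.8%. Signals of different probes also depend on how each probe binds, and the amounts of the 2 miRNAs were not compared.

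The late members miR-128a and miR-7a were detectable on the microarray where most miRNAs of a like Ct were not. Among the other mouse miRNAs within 0.5 cycles, 1 of 13 near miR-128a and 2 of 12 near miR-7a were detectable. These 2 members lay in each other's window. The 1 near miR-128a was miR-7a, and miR-128a was 1 of the 2 near miR-7a. miR-126-3p was under the limit on both arrays, and 4 of the 16 mouse miRNAs near it in Ct were detectable. miR-375 was under the limit too, with mean signals of 9.38 on array 2 and 7.04 on array 1. So was the star strand miR-7a*, at a ΔCt of 9.35 on Array B, with a signal of 9.99 on array 2 and 4.64 on array 1.

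**Figure D4:**
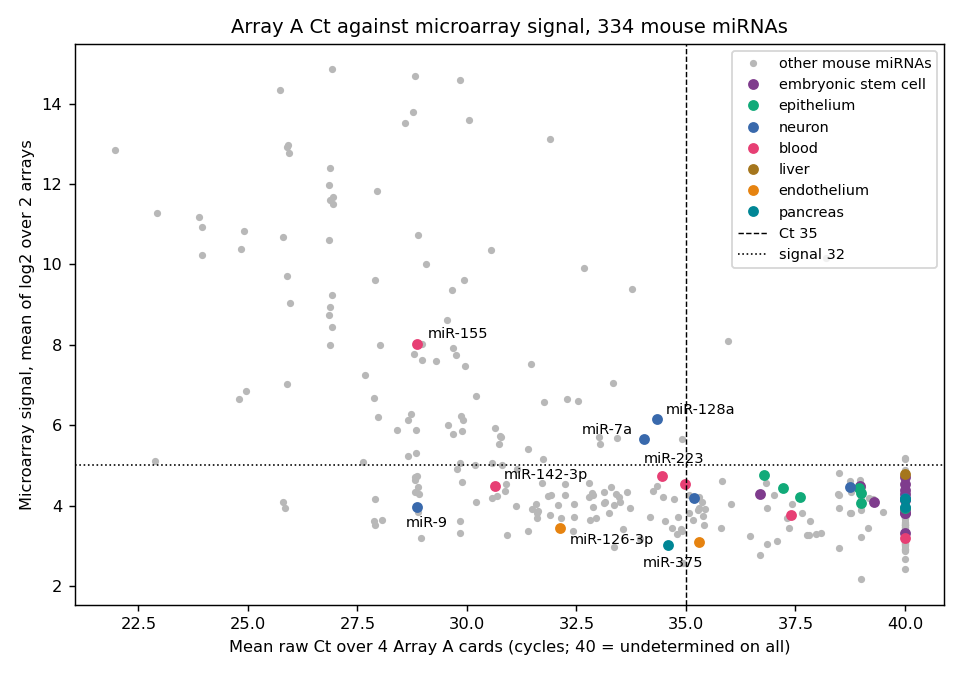
Mean raw Ct over the 4 Array A cards (horizontal) against the mean log2 microarray signal of both arrays (vertical) for 334 mouse miRNAs, with the lineage miRNAs in colour, a dashed line at Ct 35 and a dotted line at a signal of 32. miR-155 and miR-9 share a Ct of about 28.9 at mean log2 signals of 8.03 and 3.97, and every member right of the dashed line lies below the dotted one.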

How the data were processed

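Aliquots of 1 C2C12 RNA were measured on 4 Array A cards, 4 Array B cards and 2 microarrays. For the qPCR cards the deposited values were raw Ct values, made by the authors with automatic baseline and a common threshold, with 40 for undetermined wells. For the microarrays the authors deposited a density for each spot and a background-subtracted intensity with a floor of 1. The methods name a locally weighted regression, and whether these intensities had been through it was not tested. Spots were averaged per probe, and 5S rRNA control probes were left out. The deposited ΔCt tables were not used. On 1 pre-amplified Array B card their value for the control U87 does not follow from the raw Ct.

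ΔCt was the raw Ct less MammU6 on the same card. Differences were fitted with limma 3.58.1 in R 4.3.3 (lmFit and eBayes) over all detectable assays (on Array B, those detectable without pre-amplification), with p-values adjusted by the Benjamini-Hochberg method at 0.05. The step was tested on simulated data. Summaries and figures used Python 3.11.15. Sequences and coordinates came from RefSeq (GRCm38.p6), by identity with the array's target sequence, allowing a 3′ end up to 2 bases longer or shorter. The assay named miR-128a was set beside the probe named miR-128. No correlation between platforms was given, since 3 members were detectable on both.

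The text names members detectable on a platform or at 35 or less on any card, the lowest of each lineage, and the star strands of those hairpins. Other members are given by count, and a few were named after their values were seen. Members, lists and tests were chosen with earlier results of these data known. The labels pair the Array A cards by day and reaction. Array B labels give only a card number within each protocol, and its cards were paired by that number. As a check, each card's deviation from the mean of its group was set against that of its partner card, and the correlation was 0.0255 where the day paired the reactions, 0.325 where the reaction paired the days and -0.0131 on Array B. The replicate block was run as an alternative. The raw amplification curves were not used here.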

Additional observations from a re-analysis of the deposited data

Results flagged for a closer look

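In 7 of the 22 members with at least 1 determined Array A well, 1 card stood apart from the other 3 by the Dixon criterion, which chance meets in about 1 group in 20. That was 31.8% of them, beside 54 of all 263 such assays (20.5%), and 37 of those 54, like 6 of the 7 members, had a single determined well. For miR-128a the card was RT2 day 1, with a Ct of 35.62 where the others lay between 33.86 and 33.96. Its gap to the nearest card was 0.939 of the whole range, and its mean was 33.92 without that card. For the other 6 the ratio is fixed at 1 by setting the 3 undetermined wells to 40. Their single determined values were 34.97 (miR-124), 35.83 (miR-200a), 35.93 (miR-293), 35.97 (miR-203) and 37.16 (miR-295), all on RT1 day 1, and 35.96 (miR-205) on RT2 day 1.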

How the results depend on the processing

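The count of detectable members on Array A depended on the limit. It was 9 at a Ct of 35, 3 at 32, 16 at 38, 5 with every card at 35 or less and 17 with at least 1 such card, beside 182, 125, 223, 158 and 228 of all assays. With undetermined wells left out of the mean it was 12 (211 of all assays), adding miR-200c, miR-124 and miR-142-5p. It lay between 7 and 9 with each card left out in turn, and miR-9, miR-155, miR-142-3p, miR-126-3p, miR-7a, miR-128a and miR-223 were detectable each time. The median SD of the detectable members, 0.671, was 0.277 without RT2 day 1 and 0.382 without RT1 day 2. On the microarray 3 members became 1 at a signal limit of 100 and 0 at 500. They became 2 (miR-155 and miR-128) at 3 SD of the empty spots, a limit chosen after seeing the data, though the methods list a like criterion. Array 2 alone added miR-290-5p. Array B gave 0 members under all limits tried. No member was called between reactions or days under any alternative, the replicate block with 0 calls included (lowest adjusted p 0.216 by reaction and 0.537 by day). The methods' t-test called 0 members at its own threshold too. Over all assays, calls by reaction were 4, and 0 to 5 under the alternatives (1 with the block, 0 by the methods' t-test after Benjamini-Hochberg), and calls by day 0, or 1 without RT2 day 1 and 1 by the methods' t-test at its own threshold. With pre-amplification, 0 of 3 star strands were called. On raw Ct all 3 were, where rno-miR-7a* turned to a difference of -7.26 cycles (adjusted p = 1.06e-31). With the other endogenous controls 1 was called, rno-miR-7a* (adjusted p = 0.0397), and likewise 1 without U87 among those controls (adjusted p = 0.0485), a setting chosen after seeing the data because the deposited ΔCt of U87 differs from its raw Ct on 1 pre-amplified card. With each card left out 0 to 1 were called, miR-9* without the card not pre-amplified 2 (adjusted p = 0.0134). The block called 0 of 3, and 4 of 60 assays where 15 were called without it. Other counts over Array B were 60 on raw Ct, 26 with the other controls, 2 by the t-test and 8 to 32 with a card left out. Wells above a Ct of 35 and signals under 32 set the limit on what can be said of the late members.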

Other observations

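Many Ct values lay just below a whole cycle, and not only late ones. Of 21 determined wells of the lineage assays with a Ct above 35, 10 (47.6%) had a fraction of 0.9 or more, and 9 lay between 35.9 and 36. Over all assays this held for 36 of 118 such wells (30.5%), with 29 between 35.9 and 36. Over determined wells of any Ct, the shares were 24 of 62 (38.7%) for the lineage assays and 300 of 883 (34.0%) for all assays. These counts were made after the values were seen, and the raw amplification curves that would show how they arose were not analysed here.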
